A study of Mus musculus with 18 samples.

Results

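The angiopoietin-Tie system and genes of sprouting tip cells were followed as 10 named genes: the receptors Tek and Tie1, the ligands Angpt1 and Angpt2, the angiopoietin-like gene Angptl4, and Esm1, Apln, Aplnr, Plvap and Igfbp3. They were taken by name, from a list chosen with earlier results of these data known. All 10 were found among 55401 identifiers in the endothelial table and among 22612 lines in the table of tumour cells. The study sequenced RNA of 6 groups of cells with 3 libraries each, 18 in all. The 12 endothelial libraries came from sorted CD45-, CD31-high cells of wild-type C57BL/6 mice. BEC normal were blood vessel endothelial cells of the mammary fat pad of mice without tumour, and BEC tumour were BECs of EO771 primary tumours grown in that pad. HEC normal and HEC tumour were PNAd+ high endothelial cells, which line the venules where lymphocytes enter lymph nodes, from inguinal nodes of mice without and with EO771 tumours. The labels name the tissue of HEC tumour as lymph node metastases. Cells of the EO771 line itself, from mouse breast cancer, were cultured with vehicle or with 12-HETE, a lipid made by the enzyme ALOX12, for the remaining 6 libraries. The cell type and the tissue of origin cannot be told apart when HECs of nodes are set against BECs of fat pad or tumour, and the 3 tissues were digested with different enzymes. The labels name replicates without saying how many mice or separate cultures stand behind them. The study's legends give 3 independent experiments for the endothelial and for the EO771 data, without the number of mice behind each. The p-values therefore measure the spread between these libraries, which may be in part technical. The labels give no dose or time for 12-HETE, and the study's methods describe a nanomolar dose given over days.

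Angpt1 is secreted mainly by cells around the vessel and activates Tek, the Tie2 receptor of endothelium, which keeps the vessel wall quiet. Angpt2 is made by endothelial cells themselves, is stored and released on stimulation, and acts on Tek as a weak agonist or as an antagonist depending on the setting, while Tie1, long an orphan receptor, modulates Tek. Tip cells are the endothelial cells that lead a new sprout, and transcripts of Esm1, Apln, Angpt2, Plvap and Igfbp3 have been used as their marks.

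All 12 endothelial libraries held endothelial marker RNA. The 10 markers of that list (Pecam1, Cdh5, Erg and others) summed to between 2410 and 3423 CPM (counts scaled to library size), with none at 0. The sum hides members that differed. Cldn5 averaged 17771 normalised counts in BEC normal and 23.8 in BEC tumour, against 74.7 in HEC normal and 67.2 in HEC tumour. Sox18 averaged 4933, 170, 350 and 603 in the same order. The 8 markers of high endothelium summed to 68.6 to 80.1 CPM in BEC normal and 75 to 79 in BEC tumour, against 1136 to 1500 in HEC normal and 2329 to 3164 in HEC tumour. Glycam1 and Chst4 were at 0 in BECs, and Fut7, B3gnt3 and Enpp2 averaged higher in HECs, with and without tumour. Other markers of this list went the other way. Chst2 was at 0 in HECs and averaged 1431 normalised counts in BEC normal and 133 in BEC tumour. Gcnt1 averaged 373 in BEC normal and 490 in BEC tumour, against 291 in HEC normal and 320 in HEC tumour. Madcam1 averaged 20.9 in BEC normal and was at 0 in HEC normal. HEC normal replicate 2 stood apart with 4.1 normalised counts of Chst4, where the group reached 20205, and HEC tumour replicate 3 with 14255 of Fut7, where the group reached 66478. Leaving out either changed no call of the 10 genes other than those of Angpt1 given below. Library totals were 56.4 to 79.4 M for endothelium, whose low values rise in steps of about 3.75, so that 1 unit is not 1 fragment, and from 17.3 to 18.6 M in EO771 cells. A counting limit was set at 3 fragments, 11.2 endothelial units per library, about the largest expected value that an observed 0 allows. It covers counting error only.

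Corrected for transcript length, the 10 genes spanned a wide range of levels. Apln, the secreted peptide apelin, had the highest mean level of the 10 in each endothelial group, at 209 ± 2.81 RPKM (reads scaled to exon length and library total) in BEC normal and 151 ± 2.8 in BEC tumour, against 276 ± 9.42 in HEC normal and 240 ± 0.328 in the HEC tumour libraries (SD, n = 3 each). That placed Apln between rank 208 and rank 331 of 18486 genes. Plvap, which forms the diaphragms of fenestrae and caveolae, had group means of 69.4 to 107 RPKM, and Tie1 of 67.3 to 88.4 RPKM. Tek stood lower than Tie1 in each group, at 5.38 to 10.5 RPKM. Aplnr, the receptor for apelin, and Angpt1 were the lowest in all 4 groups, at no more than 0.155 RPKM. The genes in between changed places among the groups. Esm1, a secreted proteoglycan, ranked 9264 and 10716 of 18486 genes in BEC normal and BEC tumour but 1715 and 965 in HEC normal and HEC tumour. Igfbp3, a secreted carrier of insulin-like growth factors, ranked 1825 in BEC normal and 12904 in BEC tumour, against 15361 in HEC normal and 16483 in HEC tumour.

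**Figure D1:**
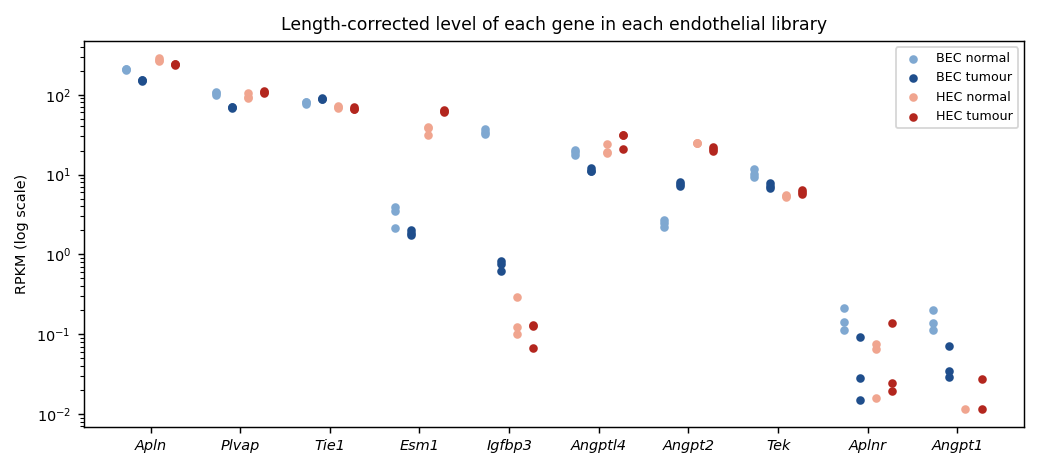
Length-corrected level (RPKM, log axis) of each of the 10 genes, with 1 point per library and colours for the 4 endothelial groups; libraries at 0 are not drawn. Apln, Plvap and Tie1 lie high in all groups, Esm1 lies high only in the 6 HEC libraries, and Igfbp3 lies high only in the 3 BEC normal libraries.

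The length-corrected plot shows these levels gene by gene. Below, levels within a gene are normalised counts, the deposited values scaled between libraries, and they are compared by DESeq2 over all genes of the table. A gene is called when its adjusted p is under 0.05 and its fold change is over 2. The 4 comparisons of endothelial groups share libraries with one another, so their calls are not independent. In bulk RNA, fewer cells of a type and less RNA per cell cannot be told apart.

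Between HECs and BECs, Esm1 had the largest log2 fold change upward and Igfbp3 the largest downward among the 10 genes, with and without tumour, and their upstream sequences are shown because of this. Each is the 250 bases before the gene start in RefSeq (GRCm38.p6), 5′ to 3′ on the strand of the gene, with CpG dinucleotides in capitals. Esm1 lies on the plus strand (chr13:113209409-113209658) and Igfbp3 on the minus strand (chr11:7213924-7214173).
Esm1: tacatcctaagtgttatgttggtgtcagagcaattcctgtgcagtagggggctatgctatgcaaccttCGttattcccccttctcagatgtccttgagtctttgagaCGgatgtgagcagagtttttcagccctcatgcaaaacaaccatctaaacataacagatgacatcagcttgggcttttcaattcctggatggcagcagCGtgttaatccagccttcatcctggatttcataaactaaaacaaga
Igfbp3: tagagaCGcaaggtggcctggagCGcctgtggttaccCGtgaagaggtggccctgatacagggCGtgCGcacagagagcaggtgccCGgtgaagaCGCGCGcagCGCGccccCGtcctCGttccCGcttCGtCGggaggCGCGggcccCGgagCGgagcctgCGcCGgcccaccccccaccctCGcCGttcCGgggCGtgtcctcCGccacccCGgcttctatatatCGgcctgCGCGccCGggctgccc
The Esm1 window held 3 CpG and the Igfbp3 window 32, where the median of 32851 mouse promoter windows was 6. Of all windows, 29% had fewer CpG than Esm1 and 95.4% fewer than Igfbp3. Among the other genes, the windows of Tek, Tie1 and Apln held 2, 6 and 12 CpG, and the remaining 5 genes had no window in the table. On either strand, none of the 5 windows held ACGTG, the core of the hypoxia response element, which 16.6% of all windows held. None held the ETS motif letters CCGGAAG, present in 6.91% of all windows, or the FOXO letters GTAAACA, present in 3.17%. The letters AGATAA, bound by GATA factors and present in 9.99% of all windows, and the AP-1 letters TGACTCA, present in 4.46%, were absent as well. This says only that these letters are not in these windows.

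HEC normal against BEC normal asks how high endothelium of the node differed from fat pad vessels in mice without tumour. Of the 10 genes, Angpt2 and Esm1 were called higher and Igfbp3 and Angpt1 lower in HEC normal, where 17.1% of all genes tested were called higher and 15.1% lower. The count includes Angpt1, which was high enough to be tested only because of BEC normal. The median log2 fold change of the 10 was -0.17 (-0.14 without Angpt1), beside 0 over all genes.

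Of the 2 ligands, Angpt2 was far higher in HEC normal and Angpt1 was scarce. Angpt2 measured 678, 565 and 638 normalised counts in BEC normal and 6258, 6189 and 6148 in HEC normal. Every HEC normal library lay far above every BEC normal library. The log2 fold change was 3.30 ± 0.08 (SE), a fold of 9.86, with an adjusted p too small for the software to represent. Angpt1 measured 72.3, 50.6 and 40.6 normalised counts in BEC normal, and 0, 4.1 and 0 in HEC normal, under the counting limit. These are about 44 fragments against 1, so BEC normal exceeded HEC normal by 44.7 (95% Clopper-Pearson interval 7.61 to 1804.9, counting error only; log2 fold change -5.35 ± 1.23, adjusted p = 3.55e-05). Angpt1 passed the filter on low values only through BEC normal, the group where it was high, so it had to differ and its call is given as a description. Of its exons, 737 bases overlap Gm17473 on the other strand.

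The receptors differed little by comparison. Tek measured 3829, 3103 and 3379 in BEC normal and 1763, 1738 and 1688 in HEC normal, with no overlap. Its log2 fold change of -0.99 ± 0.09 (adjusted p = 7.8e-25) lay at the 2-fold limit, and Tek was called lower without BEC normal replicate 2 (-1.07), BEC normal replicate 3 (-1.01) or HEC normal replicate 1 (-1.0). Tie1 had a log2 fold change of -0.20 ± 0.04.

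Of the tip cell genes, Esm1 measured 561, 315 and 505 in BEC normal against 5653, 5550 and 4510 in HEC normal. The lowest HEC normal library lay above every BEC normal library, and the fold was 11.3 (log2 3.50 ± 0.18, adjusted p = 8.52e-86). Igfbp3 measured 6840, 8125 and 7489 in BEC normal against 21.3, 26.4 and 62.1 in HEC normal. The fold of 203 in favour of BEC normal (log2 -7.67 ± 0.30, adjusted p = 1.88e-146) was the largest of the 10. Apln was higher in HEC normal by 0.38 ± 0.04 on the log2 scale, short of 2-fold, and Angptl4, Plvap and Aplnr did not pass the test.

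Summed markers of other cells moved with Igfbp3 and Angpt1, though not each marker did. In HEC normal against BEC normal, 5 of 8 tested pericyte and smooth muscle markers were called lower and 0 higher. Of 6 fibroblast markers 4 were called lower and 1 higher, where 15.1% of all genes were called lower and 17.1% higher. The 1 higher was Dpt, at 0 in BEC normal and at 0 to 14.3 normalised counts in HEC normal, near the counting limit. Dpt passed the filter on low values only through BEC tumour. The 10 markers of pericytes and smooth muscle summed to 874 to 906 CPM in BEC normal and 82 to 126 in BEC tumour, against 32.3 to 34.8 in HEC normal and 19.1 to 21.7 in HEC tumour, with Kcnj8 and Abcc9 at 0 in BEC normal. The 7 fibroblast markers summed to 217 to 225, 23.4 to 55.2, 17.2 to 19.6 and 8.19 to 9.12 CPM in the same order, with Lum and Dpt at 0 in BEC normal. Their part in the result was not tested.

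**Figure D2:**
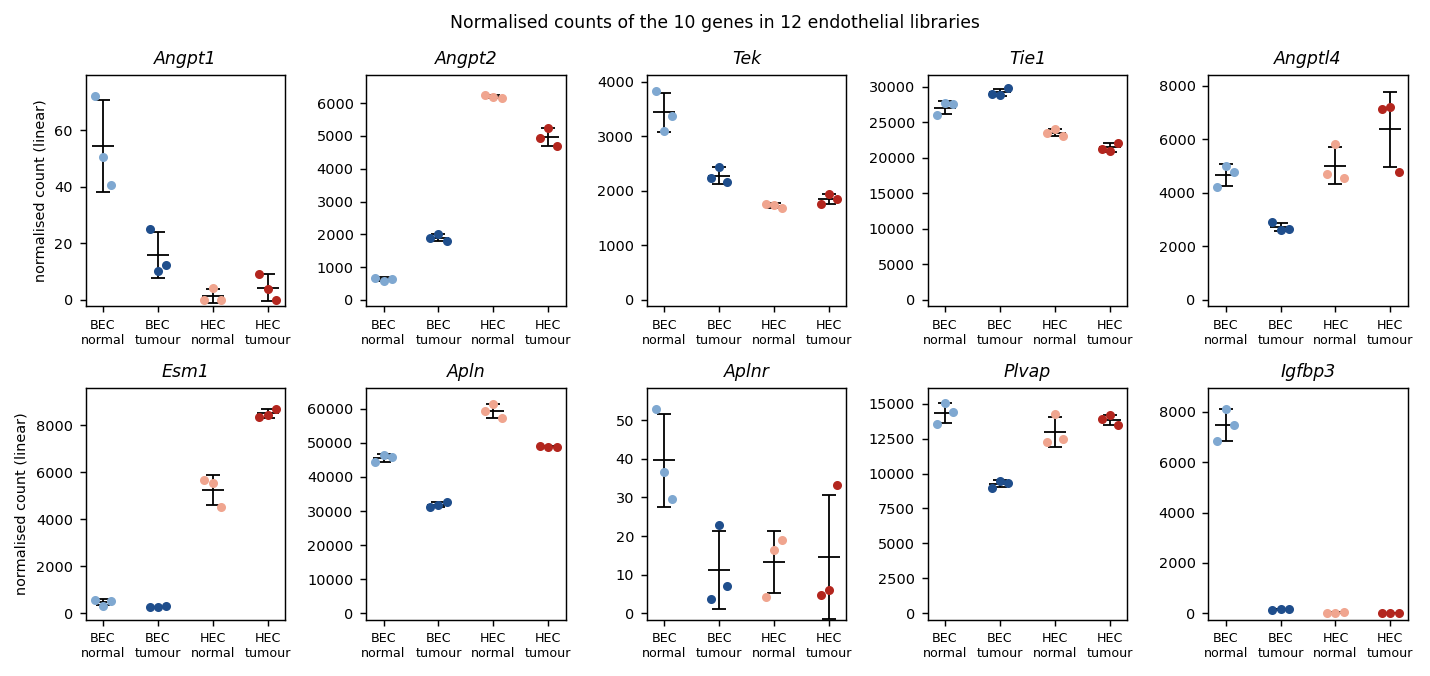
Normalised counts (linear axes from 0, 1 panel per gene) in the 12 endothelial libraries, with points for libraries and bars for mean ± SD of 3. Angpt2 and Esm1 are highest in the HEC groups, Igfbp3 and Angpt1 are highest in BEC normal, and Tie1 differs little between groups.

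HEC tumour against BEC tumour set the high endothelium of nodes of tumour-bearing mice against vessels of the primary tumour. Angpt2, Angptl4 and Esm1 were called higher in HEC tumour and Igfbp3 lower, of 10 genes tested, where 11.2% of all genes were called higher and 10.7% lower. The median of the 10 was 0.48 (0.58 without Angpt1), beside 0.01 over all genes.

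Esm1 measured 8356, 8441 and 8711 in HEC tumour and 249, 261 and 288 in BEC tumour. The groups were far apart and each was tight, with means of 8503 ± 186 and 266 ± 20 (SD, n = 3 each). The fold was 32 (log2 5.0 ± 0.18, adjusted p = 2.75e-169). Angpt2 measured 4950, 5232 and 4694 in HEC tumour and 1883, 2005 and 1803 in BEC tumour, again without overlap. The fold of 2.61 (log2 1.39 ± 0.08, adjusted p = 1.42e-69) was smaller than the 9.86 between the groups without tumour, a difference tested below as the interaction.

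Angptl4, a secreted inhibitor of lipoprotein lipase, measured 7147, 7206 and 4773 in HEC tumour against 2902, 2620 and 2635 in BEC tumour. Replicate 3 of HEC tumour was the low one, yet lay above all BEC tumour libraries, and the fold was 2.34 (log2 1.23 ± 0.16, adjusted p = 1.8e-13). Tested against a 2-fold change in place of no change, the adjusted p was 0.985. Igfbp3 measured 13.9, 26.6 and 25.5 in HEC tumour against 129, 176 and 160 in BEC tumour (log2 -2.81 ± 0.33, adjusted p = 7.27e-17). Apln, Plvap, Tie1 and Tek had log2 fold changes of 0.62, 0.58, -0.44 and -0.30, each with an adjusted p under 0.05 and each under 2-fold. Angpt1, at 9.2, 4 and 0 in HEC tumour and 25, 10.2 and 12 in BEC tumour, was not called (adjusted p = 0.143), but was called lower without HEC tumour replicate 1 (log2 -2.96, adjusted p = 0.0396).

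**Figure D3:**
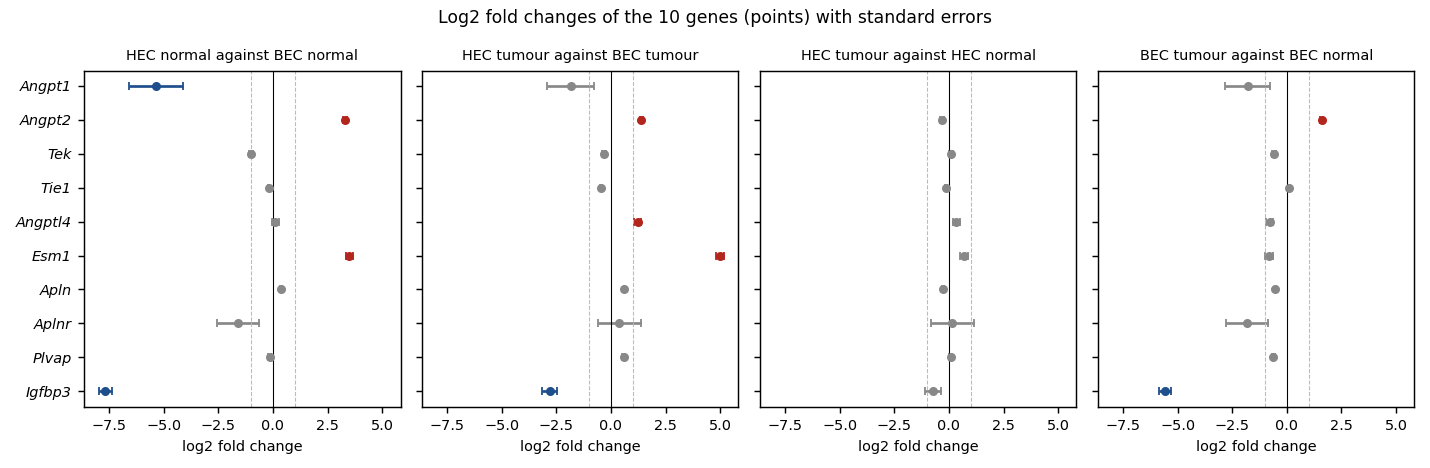
Log2 fold change ± SE of the 10 genes in 4 comparisons of endothelial groups (horizontal axis), with dashed lines at a 2-fold change; red points were called higher, blue lower and grey neither, and Angpt1 is left out where both groups were at or under the counting limit. No gene is called in HEC tumour against HEC normal.

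HEC tumour against HEC normal gave no call by DESeq2 or by edgeR. Here 4.58% of all genes were called higher and 3.21% lower, 6 of the 10 genes had an unadjusted p under 0.05, and 4 had an adjusted p under 0.05 at under 2-fold. The median of the 10 was 0.10 (0.09 without Angpt1), beside 0.02 over all genes. Esm1 went from 5653, 5550 and 4510 to 8356, 8441 and 8711, and the 2 groups did not overlap. Its log2 fold change was 0.70 ± 0.17 (adjusted p = 0.000299), a fold of 1.62 with a lower 95% bound of 0.36 on the log2 scale.

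Angpt2 (-0.32 ± 0.08), Apln (-0.28 ± 0.04) and Tie1 (-0.13 ± 0.04) passed the adjusted p in the other direction. Tek (0.10 ± 0.10) and Plvap (0.09 ± 0.07) did not pass it. Angptl4 had a log2 fold change of 0.34 (interval 0.03 to 0.66, adjusted p = 0.0823) with overlapping libraries. Igfbp3 was low in all 6 libraries, at 13.9 to 62.1 normalised counts, and was called lower only when HEC normal replicate 1 was left out (log2 -1.01, adjusted p = 0.0114). Angpt1 was at or under the counting limit in all 6 libraries, and no fold is given. It was called higher without HEC normal replicate 2, the only library of that group with a fragment of it.

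BEC tumour against BEC normal compared vessels of the primary tumour with those of the fat pad. Angpt2 was called higher and Igfbp3 lower, of 10 genes tested, where 12.4% of all genes were called higher and 10.8% lower. The median of the 10 was -0.70 (-0.63 without Angpt1), beside 0.01 over all genes. Angpt2 went from 678, 565 and 638 to 1883, 2005 and 1803, a fold of 3.02 (log2 1.59 ± 0.08, adjusted p = 3.74e-79) with no overlap. Igfbp3 went from 6840, 8125 and 7489 to 129, 176 and 160, a fold of 48.2 (log2 -5.59 ± 0.27, adjusted p = 8.18e-94). The most Igfbp3-rich BEC tumour library had far less than the poorest BEC normal library.

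A further 5 genes were lower in BEC tumour with an adjusted p under 0.05 but under 2-fold: Esm1 (-0.80 ± 0.18), Angptl4 (-0.78 ± 0.16), Plvap (-0.63 ± 0.07), Tek (-0.59 ± 0.09) and Apln (-0.52 ± 0.04). In none of the 5 did libraries of the groups overlap. Esm1 was called lower without BEC normal replicate 2 (-1.01), its lowest library in that group. Tie1 was higher by 0.11 ± 0.04. Angpt1 was about 3.61 times as high in BEC normal by its fragments (44 against 14, interval 1.94 to 7.13, counting error only), but was not called with all 12 libraries in the fit (adjusted p = 0.129). It was called lower when only these 2 groups were fitted (adjusted p = 0.00767) or when values were divided by the step (adjusted p = 0.0459). Among all 12 libraries Angpt1 passed the filter only through BEC normal, so its calls here are given as a description. Aplnr measured 52.9, 36.5 and 29.5 in BEC normal and 3.7, 22.8 and 7.1 in BEC tumour (log2 -1.82 ± 0.96, adjusted p = 0.0981). Without BEC tumour replicate 2 it was called lower (-2.89, adjusted p = 0.0161).

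Marker RNA of other cells moved in both directions with tumour in BECs. The summed pericyte and smooth muscle markers went from 874 to 906 CPM in BEC normal down to 82 to 126 in BEC tumour. The summed fibroblast markers went from 217 to 225 CPM down to 23.4 to 55.2, beside the fall of Igfbp3. Not each marker fell. Of 8 pericyte and smooth muscle markers tested 5 were called lower and 0 higher, and of 6 fibroblast markers 4 lower and 2 higher. Over all genes the shares were 10.8% lower and 12.4% higher. Dcn averaged 181 ± 52.9 in BEC normal and 481 ± 249 in BEC tumour. Des, Myh11, Kcnj8, Abcc9, Lum and Dpt also had higher means in BEC tumour. Dpt, 1 of the 2 fibroblast markers called higher, passed the filter on low values only through BEC tumour (47.6 ± 13.1). Its call is given as a description. The 7 myeloid markers summed to 1514 to 2052 CPM in BEC tumour against 107 to 128 in BEC normal, none of them at 0 in BEC tumour. The 5 epithelial and tumour cell markers summed to 5.77 and 8.82 CPM in BEC tumour replicates 1 and 2 and 74.1 in replicate 3, against 1.51 to 2.94 in BEC normal. The endothelial markers summed to 2410 to 2466 CPM in BEC tumour and 3287 to 3423 in BEC normal. Of the 10 endothelial markers, 3 were called lower and 0 higher. The part of the other cells in the changes of BEC tumour was not tested. Without BEC tumour replicate 3, the calls of Angpt2 and Igfbp3 remained.

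The interaction subtracts the change of BECs with tumour from that of HECs and tests whether the 2 changes differ. In BECs the change is also one of tissue and digestion, from fat pad to primary tumour, while both HEC groups came from lymph nodes. The test cannot tell a cell type's response to tumour from that change of tissue. A call was made for 4 of the 10 genes, higher for Esm1, Angptl4 and Igfbp3 and lower for Angpt2, where 11.2% of all genes were called higher and 12.1% lower. The median was 0.92 (0.72 without Angpt1), beside 0 over all genes. The Angpt2 interaction was -1.92 ± 0.11 (adjusted p = 2.23e-62): Angpt2 was 3.02 times as high with tumour in BECs and 1.25-fold lower in HECs. The Esm1 interaction was 1.5 ± 0.25 (adjusted p = 1.82e-08), with log2 changes of 0.70 in HECs and -0.80 in BECs. Angptl4 had log2 changes of -0.78 in BECs and 0.34 in HECs, where it did not pass the test (adjusted p = 0.0823). The Angptl4 interaction was 1.12 ± 0.23 (adjusted p = 3.83e-06).

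For Igfbp3 the interaction of 4.86 ± 0.44 (adjusted p = 6.07e-27) came with a fall in BECs from a high level and low values in both HEC groups. Tek (0.70), Plvap (0.72), Apln (0.24) and Tie1 (-0.24) had interactions that passed the adjusted p at under 2-fold. Tested against a 2-fold difference, the Esm1 and Angptl4 interactions were no longer called (adjusted p = 0.351 and 1). Angpt1, with low counts, was not called (adjusted p = 0.0688), but was called higher without HEC normal replicate 2 (0.004), without HEC tumour replicate 3 (0.0115) or with TMM factors (0.0299, all adjusted p). Without HEC normal replicate 2 that group held no Angpt1 at all. Because Angpt1 passed the filter only through BEC normal, these calls are given as a description.

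**Figure D4:**
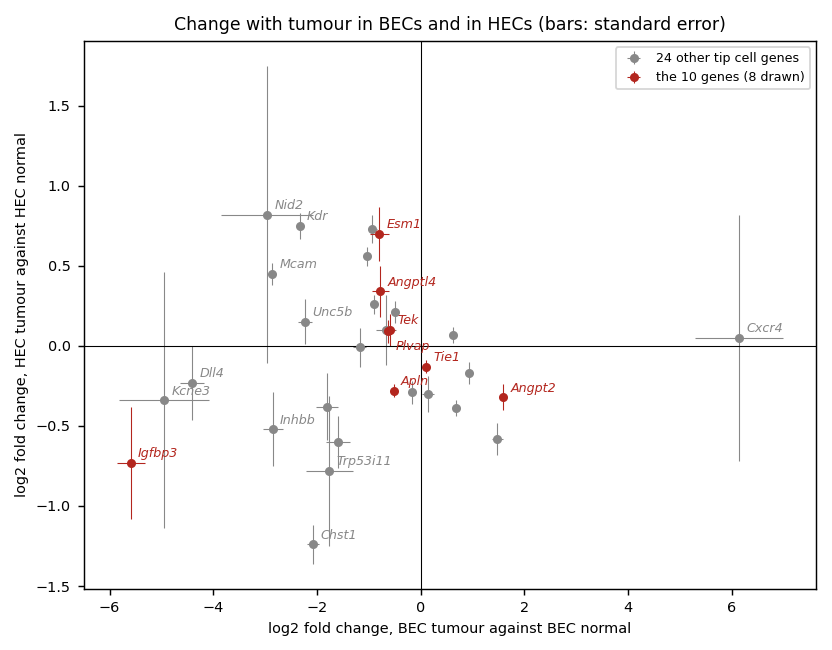
Log2 fold change ± SE with tumour in BECs (horizontal axis) and in HECs (vertical axis), for 8 of the 10 genes (red; Angpt1 and Aplnr are left out for low counts) and 24 other tip cell genes (grey). Esm1 and Angptl4 lie to the upper left, Angpt2 to the lower right, and Igfbp3 far to the left.

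The plot of tumour changes sets these genes beside 24 other genes linked to tip cells, a list chosen with earlier results of these data known. In BEC tumour against BEC normal, 2 of the 24 were called higher and 13 lower, beside 12.4% and 10.8% of all genes, with a median log2 fold change of -1.10. Dll4, the Notch ligand of tip cells, fell from a mean of 1129 ± 87.5 to 53 ± 22.3 (log2 -4.41 ± 0.24, adjusted p = 2.41e-73); its exons overlap Gm14207. Kcne3, a potassium channel subunit, was called lower at 4.23 ± 7.33 against 132 ± 12.4, with BEC tumour libraries at or near the counting limit. Adm, the vasodilator peptide adrenomedullin, rose from 778 ± 72.2 to 2172 ± 44 (1.48 ± 0.11). Cxcr4, a chemokine receptor also made by leukocytes, rose by 6.14 ± 0.85, from 0 to 14.1 up to 184 to 426.4 normalised counts, in the libraries with high myeloid markers, whose part was not tested.

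In HEC tumour against HEC normal, 1 of the 24, the sulfotransferase gene Chst1, was called lower (-1.24 ± 0.12) and none higher (median -0.09), and Kdr, the main VEGF receptor, differed by 0.75 ± 0.08 at under 2-fold. The interaction was called higher for 13 and lower for 4, beside 11.2% and 12.1% of all genes, with a median of 1.08. In HEC normal against BEC normal, 4 were called higher and 11 lower (median -0.86), beside 17.1% and 15.1% of all genes, among them Adm (3.73 ± 0.11) and Ankrd37 (3.90 ± 0.18, exons shared with Ufsp2 and Lrp2bp) higher and the netrin receptor Unc5b (-4.48 ± 0.13) and the basement membrane gene Nid2 (-6.89 ± 0.91) lower. In HEC tumour against BEC tumour, 8 were called higher and 7 lower (median -0.26), beside 11.2% and 10.7% of all genes, and Pgf, a VEGF family ligand, was higher at 6830 ± 1495 against 658 ± 60.4 (3.38 ± 0.21).

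Of 11 partners of the Tie receptors, 10 were tested. In HEC normal against BEC normal 2 were called higher and 3 lower (median -0.21), where the shares of all genes were 17.1% and 15.1%. In HEC tumour against BEC tumour 1 was called higher and 3 lower (median 0.08), where they were 11.2% and 10.7%. The counts of 2 and 1 called higher lie near those shares. Angpt4, the third angiopoietin ligand of Tek, measured 5.49 ± 4.9 in BEC normal and 73 ± 13.4 in BEC tumour, against 132 ± 27.8 in HEC normal and 94.2 ± 14.6 in HEC tumour. BEC normal was under the counting limit in each library, and the interaction was called lower (adjusted p = 4.41e-10), with a fitted size that depends on those low counts. Ptprb, the phosphatase that removes phosphate from Tek, had means of 5389 ± 647 in BEC normal and 2240 ± 155 in BEC tumour, against 1855 ± 58.2 in HEC normal and 3378 ± 136 in HEC tumour (interaction 2.13 ± 0.14, adjusted p = 3.26e-51).

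Klf2, a flow-responsive transcription factor, was called higher in HECs in both settings (1.47 ± 0.08 without and 1.67 ± 0.08 with tumour). Svep1, a matrix protein reported to bind Tie1, averaged 197 ± 39.2 in BEC normal and 25.2 ± 12.4 in BEC tumour (log2 -2.97 ± 0.61, called lower), and HECs held at most 3.8 in any library, with all of HEC tumour at 0. The exons of Svep1 overlap those of Gm26889. In BEC tumour against BEC normal 2 partners were called higher and 3 lower (median -0.04), and in HEC tumour against HEC normal none higher and 1 lower (median 0.00). The interaction was called higher for 1 and lower for 1 (median -0.23). Over all genes the shares were 12.4% and 10.8% in BECs, 4.58% and 3.21% in HECs, and 11.2% and 12.1% for the interaction.

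Among 7 tested of 10 angiopoietin-like and lipase genes, Lpl, the lipase that Angptl4 inhibits, measured 1636 ± 205 in BEC normal and 5055 ± 2076 in BEC tumour, against 30.3 ± 14.6 in HEC normal and 13.7 ± 4.35 in HEC tumour. Lpl was called higher in BEC tumour than in BEC normal (1.63 ± 0.32). Macrophages also make Lpl, myeloid markers were higher in BEC tumour by the values above, and their part in this rise was not tested. Gpihbp1, which holds Lpl on capillary endothelium, fell with tumour in BECs from 396 ± 52.3 to 40.9 ± 29.1 (-3.27 ± 0.51). Angptl2, another secreted member, fell with tumour in BECs (-1.95 ± 0.13) and in HECs (-1.26 ± 0.13). Calls in the list were 1 higher and 4 lower in HEC normal against BEC normal, 2 and 3 in HEC tumour against BEC tumour, 0 and 2 with tumour in HECs, 1 and 2 with tumour in BECs, and 1 and 1 for the interaction. The medians were -2.12, -0.31, -0.24, -0.28 and -0.35. The shares of all genes called higher and lower were 17.1% and 15.1%, 11.2% and 10.7%, 4.58% and 3.21%, 12.4% and 10.8%, and 11.2% and 12.1% in the same order, with all-gene medians of 0 to 0.02.

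In the insulin-like growth factor (IGF) axis, 11 of 13 genes were tested. Igfbp7, a secreted protein of the vessel wall, followed Igfbp3 in order, at 17864 ± 2111 in BEC normal and 5181 ± 950 in BEC tumour, against 26.1 ± 6.02 in HEC normal and 23.7 ± 17.5 in HEC tumour; its exons overlap Polr2b. Its fall with tumour in BECs (-1.79 ± 0.24) was less deep than the -5.59 of Igfbp3, a difference between genes that was not tested. Igf1, the growth factor, rose with tumour in BECs from 50.7 ± 24.3 to 1640 ± 418 (5.03 ± 0.29), beside the rise in myeloid markers, and in HECs from 157 ± 13.9 to 428 ± 24.9 (1.45 ± 0.27), where the myeloid sum was mostly Cd68 (33269 ± 858 without and 23315 ± 744 normalised counts with tumour), Lyz2 averaged 391 and 326, and the other 5 myeloid markers averaged at most 25.7. Calls were 1 higher and 1 lower in HEC normal against BEC normal, 1 and 5 in HEC tumour against BEC tumour, 1 and 2 with tumour in HECs, 4 and 4 with tumour in BECs, and 2 and 4 for the interaction, with medians of 0.24, -0.58, -0.39, -0.04 and -0.62. Of the 11 genes tested, a count of 1 lies near or under the shares of all genes just given for the cell type comparisons (17.1% and 15.1% without tumour, 11.2% and 10.7% with it). The shares were 4.58% and 3.21% with tumour in HECs, 12.4% and 10.8% with tumour in BECs, and 11.2% and 12.1% for the interaction. Of 9 caveola genes, the group Plvap shares structures with, none was called with tumour in BECs or in HECs by DESeq2 or edgeR, although 7 and 4 had an unadjusted p under 0.05 (medians -0.45 and -0.06). Ehd2, which stabilises caveolae, was called lower in HECs without (-2.28 ± 0.06) and with tumour (-1.10 ± 0.06), where calls in the list were 1 higher and 1 lower (median -0.43) and 0 and 2 (median 0.02). The interaction was called higher for 1 caveola gene and lower for 1 (median 0.37). A count of 1 of 9 lies near the shares of all genes in these comparisons.

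Genes with the most similar pattern were found by the root mean square difference of centred log2 normalised counts over the 12 endothelial libraries, among genes with a mean of at least 100, as a description. For Esm1 these were Cyp26b1, which breaks down retinoic acid (0.469), Gm18853 (0.546) and the natriuretic peptide gene Nppb (0.579), where the SD of Esm1 itself was 2.17. Cyp26b1 had means of 358 and 151 in BECs without and with tumour, and of 2061 and 6947 in HECs without and with it. For Angpt2 (SD 1.31) they were 9530053A07Rik (0.178), Plxna4os1 (0.191) and Tmem40 (0.209). For Igfbp3 (SD 3.34) they were the Wnt receptor Fzd9 (0.628), the collagen gene Col18a1 (0.669) and the protease gene Pcsk6 (0.716). Col18a1 had means of 36625, 1870, 163 and 175 in that order of groups.

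In EO771 cells, 12-HETE against vehicle asks how tumour cells responded to the lipid. Of the 10 genes 5 passed the filter of a mean count of 10, and of these Angpt2 and Apln were called lower and none higher, where 2.38% of all genes were called higher and 7.79% lower. The median of the 5 was -0.25, beside 0 over all genes. Angpt2 measured 178, 272 and 183 normalised counts with vehicle and 49.3, 64.1 and 69.9 with 12-HETE. All 3 libraries with 12-HETE lay under all with vehicle, and the fold was 3.46 (log2 -1.79 ± 0.25, adjusted p = 3.35e-11). Apln measured 174, 128 and 188 with vehicle and 73.9, 63.1 and 64 with 12-HETE, also without overlap, a fold of 2.44 (log2 -1.29 ± 0.23, adjusted p = 2.9e-07).

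**Figure D5:**
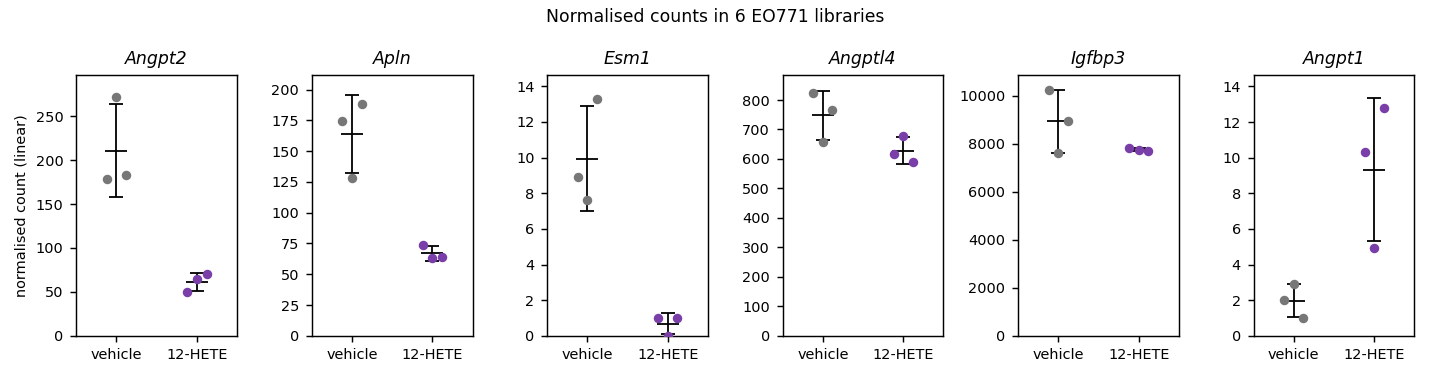
Normalised counts (linear axes from 0) of 6 of the 10 genes in the 3 vehicle and 3 12-HETE libraries of EO771 cells, with points for libraries and bars for mean ± SD. Angpt2, Apln and Esm1 are lower in each 12-HETE library than in any vehicle library, Angpt1 is higher from very low counts, and Angptl4 and Igfbp3 overlap.

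Igfbp3 was abundant in EO771 cells, at 160 ± 21.8 RPKM with vehicle (rank 274 of 11500 genes) and 136 ± 1.64 with 12-HETE, in a table scaled separately from the endothelial one. Its log2 fold change of -0.21 (interval -0.44 to 0.03) did not pass the test. Angptl4 (-0.25, interval -0.51 to 0.00) and Plvap (0.31, interval -0.86 to 1.49) did not pass it either. The remaining 5 genes had raw counts under the filter. Esm1 had 9, 8 and 13 counts with vehicle and 1, 0 and 1 with 12-HETE, a vehicle to 12-HETE ratio of 14.9 (95% Clopper-Pearson interval 3.77 to 128). Angpt1 had 2, 3 and 1 against 10, 5 and 13, a 12-HETE to vehicle ratio of 4.71 (interval 1.91 to 13.9). Both intervals pool the counts of each group and cover counting error only, not the spread between libraries. Fitted by DESeq2 without the filter, Esm1 was called lower (adjusted p = 0.00714) and Angpt1 higher (adjusted p = 0.0433).

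The receptors were scarce in EO771 cells. Tek had 1 count in 1 of the 6 libraries and Tie1 at most 2 in any library, both under the counting limit of 3, and Aplnr had 1 to 6. Among the other lists, Pdgfb, a tip cell growth factor, was called lower with 12-HETE, from 1250 ± 66 to 416 ± 17.6 (-1.59 ± 0.11), and Nrp1, a co-receptor for VEGF and semaphorins, was called higher, from 51.1 ± 5.04 to 137 ± 11.4 (1.42 ± 0.22). In all, 1 of 10 tested other tip cell genes was called higher and 2 lower, 0 and 2 of 4 angiopoietin-like and lipase genes, 0 and 2 of 7 IGF axis genes, and none of 8 Tie partners or of 8 caveola genes by DESeq2 or edgeR, of which 5 and 6 had an unadjusted p under 0.05. Over all genes tested in EO771 cells, 2.38% were called higher and 7.79% lower. The medians of these lists were -0.10, -1.34, 0.06, -0.33 and 0.18. The 5 epithelial and tumour cell markers summed to 2865 to 3783 CPM with vehicle and 1928 to 1983 with 12-HETE, and their relation to these calls was not tested.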

How the data were processed

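Per the labels and the study's methods, RNA from sorted endothelial cells and from EO771 cells was sequenced, and the authors used STAR to align reads to GRCm38 and featureCounts to assign fragments to genes. The deposited endothelial values served as estimated counts, since they are whole numbers whose low values rise in steps of about 3.75 (3.67 to 3.76 over the 12 libraries); divided by the step, totals were 15.0 to 21.2 M. The authors deposited raw counts for EO771 cells. For EO771 cells the study's methods name a directional kit and removal of duplicates in a section on RNA editing, and whether the deposited counts used either, or the endothelial values did, is not given in the sources used here. Labels and methods differ on the library kit. Of 55401 endothelial identifiers, 260 had no match in the annotation (GENCODE vM21, GRCm38).

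Following the study's methods, genes with a mean value under 10 were removed, DESeq2 1.42.0 (R 4.3.3, two-sided Wald test, Benjamini-Hochberg adjustment over all genes tested) was run once on the 12 endothelial and once on the 6 EO771 libraries with a term for group alone, and genes with an adjusted p under 0.05 and a fold change over 2 were called. This left 18511 endothelial and 11602 EO771 genes. Levels are normalised counts or RPKM over merged exon length, and errors are SD for levels and SE for log2 fold changes. With 3 libraries a side, the smallest two-sided p of an exact permutation test is 0.1. Alternatives were edgeR 4.0.16 (quasi-likelihood), TMM factors, other filters, other thresholds, values divided by the step, only the groups compared, a replicate block and leaving out each library. Equal replicate numbers in EO771 correlated in their deviations from the group means (0.124, 0.224 and 0.395). With 3 libraries a side this is weak evidence that the numbers pair those libraries, and the results given come from the fit without pairing. The replicate block changed no call of the 10 genes there. No libraries were duplicates by a chi-square test of counts. In EO771, chi-square per degree of freedom between replicates was 2.39 to 2.72 with 12-HETE and 16.47 to 46.26 with vehicle. The 2 groups thus differed in spread, and the fit gave them 1 shared estimate of it. Besides the 10 genes, those named were the 2 most increased and 2 most decreased called genes of each list per comparison and a few of known role in the system. The genes and lists were chosen with earlier results of these data known.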

Additional observations from a re-analysis of the deposited data

Results flagged for a closer look

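For 8 of the 10 genes the change with tumour in HECs differed from that in BECs by the interaction test of DESeq2 at an adjusted p under 0.05. In BECs that change was also one of tissue and digestion, which the interaction cannot separate from a response to tumour. On the log2 scale the change in HECs less that in BECs was 4.86 for Igfbp3, 1.5 for Esm1, 1.12 for Angptl4, 0.72 for Plvap, 0.70 for Tek, 0.24 for Apln, -0.24 for Tie1 and -1.92 for Angpt2. For 4 of these, Plvap, Tek, Apln and Tie1, the difference was under 2-fold. With 3 libraries in each group, no group was tested for single outlying libraries.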

How the results depend on the processing

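Directions of the called genes held under all alternatives run. With the adjusted p alone as the threshold, counts of the 10 genes called higher became 5 between the cell types with tumour, and 1 in HECs, 2 in BECs and 6 in the interaction for the change with tumour. Counts called lower became 4 between the cell types without tumour and 3 with it, and 3 in HECs, 6 in BECs and 2 in the interaction. A filter at a mean of 50, which removes Angpt1 and Aplnr, left 1 called lower in HEC normal against BEC normal. Tested against a 2-fold change, 1 interaction (Igfbp3) was called higher, and 0 genes were called lower in EO771 in place of Angpt2 and Apln, with an adjusted p of 0.0539 for Angpt2. Without a filter 1 gene was called higher in EO771. In BEC tumour against BEC normal, 2 genes were called lower with values divided by the step, with only the groups compared, and with the replicate block. Leaving out 1 library gave 1 to 2 called lower there and in HEC tumour against BEC tumour, and 0 to 1 in each direction in HEC tumour against HEC normal. Signs turned only in uncalled genes, when 1 library was left out: Angptl4 ran from -0.01 to 0.18 in HEC normal against BEC normal, and Aplnr from -1.08 to 1.44 (-0.04 without BEC tumour replicate 1) in HEC tumour against BEC tumour and from -1.32 to 0.57 (-0.28 without HEC normal replicate 1) in HEC tumour against HEC normal. Same-numbered endothelial libraries had correlations of -0.071 to 0.237 in their deviations, which do not settle whether they were paired. The replicate block added the call of Aplnr in BEC tumour against BEC normal (-2.21, adjusted p = 0.0476) and changed no other. The causes were not tested. Depth limits Angpt1 and Aplnr in endothelium and Esm1, Angpt1, Aplnr, Tek and Tie1 in EO771.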
